A study of Mus musculus with 4 samples.

Results

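The potassium channel genes are described here across 4 hippocampal RNA libraries, as those whose symbol begins with Kcn followed by a letter from a to v. Kcnj13 and Kcne2, channel genes of the choroid plexus, were set aside. This gave 92 genes of the 18492 listed in any library. Of these, 90 encode channel subunits in 16 families, and 2 do not: Kcnq1ot1, a non-coding RNA antisense to Kcnq1, and Kcnrg, a regulator of voltage-gated channel assembly. The rule reads the symbol and no measured value, but it was written with earlier results of these data known, and the 2 genes set aside are far above WT in every knockout library.

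All RNA was hippocampal, from C57BL/6 mice that were 6 months old, and each genotype gave 1 library. The Ogg1 KO library came from Ogg1-/- mice, the Mutyh KO library from Mutyh-/- mice, the DKO library from mice lacking both genes, and the WT library from wild-type mice. Ogg1 and Mutyh encode DNA glycosylases that act on oxidised guanine and on the adenine mispaired with it. The sources used here do not state how many animals gave each library, their sex or how the alleles were made. Because nothing was replicated, each comparison sets single libraries side by side and carries no p-value.

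Potassium channels let potassium leave the cell down its gradient, which repolarises the membrane after a spike and holds the resting potential. Voltage-gated Kv subunits assemble as tetramers and are joined by cytoplasmic or single-pass auxiliary subunits. Inward rectifiers (Kir) and tandem-pore leak channels (K2P) set the resting potential, and the BK and SK channels open on calcium. In the hippocampus these families shape spike width, firing rate, dendritic excitability and the uptake of potassium by astrocytes.

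The libraries held 17.02 M (Ogg1 KO), 17.15 M (Mutyh KO), 18.20 M (DKO) and 18.12 M (WT) unique reads in genes (M, mega-reads). Ogg1 had 130 reads in Ogg1 KO, 81 in Mutyh KO, 103 in DKO and 94 in WT, so its read number does not set apart the libraries labelled Ogg1-null, although the covered share of its length does (47.2% in Ogg1 KO, 81.5% in Mutyh KO, 46.4% in DKO and 86.7% in WT). Mutyh had 35, 15, 20 and 39 reads in the same order, with 57.1%, 18.4%, 27.6% and 55.9% of its length covered. Xist, the RNA of the inactive X chromosome, had 10307 reads in Mutyh KO against 14 to 29 in the other 3 libraries. Choroid plexus markers (10 of 10 above WT in every knockout library) summed to 2391, 2314 and 1170 RPKM in Ogg1 KO, Mutyh KO and DKO, against 178 in WT. RPKM is reads per kilobase of gene length and per mega-read of library. The 2 genes set aside moved with these markers: Kcnj13 stood at 24.3, 29.7 and 14.3 RPKM in Ogg1 KO, Mutyh KO and DKO, and at 1.84 in WT. Meningeal markers summed to 134, 181 and 124 RPKM in Ogg1 KO, Mutyh KO and DKO (4, 6 and 6 of 6 above WT), against 67.8 in WT. Markers of heart muscle and of liver were low in Ogg1 KO alone. The heart list summed to 2.54 RPKM in Ogg1 KO, with Actc1 at 0, against 18.6 in Mutyh KO, 17.4 in DKO and 16.2 in WT, and the liver list to 11.2, with Alb, Mup3 and Fgb at 0, against 29.8, 30.6 and 30.3. Dentate granule markers summed to 126, 155, 142 and 145 RPKM in Ogg1 KO, Mutyh KO, DKO and WT (1, 4 and 5 of 6 above WT). CA pyramidal markers summed to 1327, 1307, 1335 and 1423 RPKM in the same order (3, 0 and 3 of 6 above WT). Hypothalamus markers summed to 2.13, 12.3, 3.16 and 2.49 RPKM. The part of these differences in the values below was not tested, except where a value is given. In bulk tissue, fewer cells of a type and less RNA per cell cannot be told apart.

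Together the 92 genes took 0.540% of reads in Ogg1 KO, 0.544% in Mutyh KO, 0.549% in DKO and 0.549% in WT. Their summed levels were 1288, 1270, 1308 and 1355 RPKM in the same order. All but 5 were listed in every library, and 68 reached a mean of at least 1 RPKM over the 4 libraries and were compared between them. A level of 10 RPKM or more was reached by 35 genes, 50 by 5 genes, and 100 by Kcnab2 alone.

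**Figure D1:**
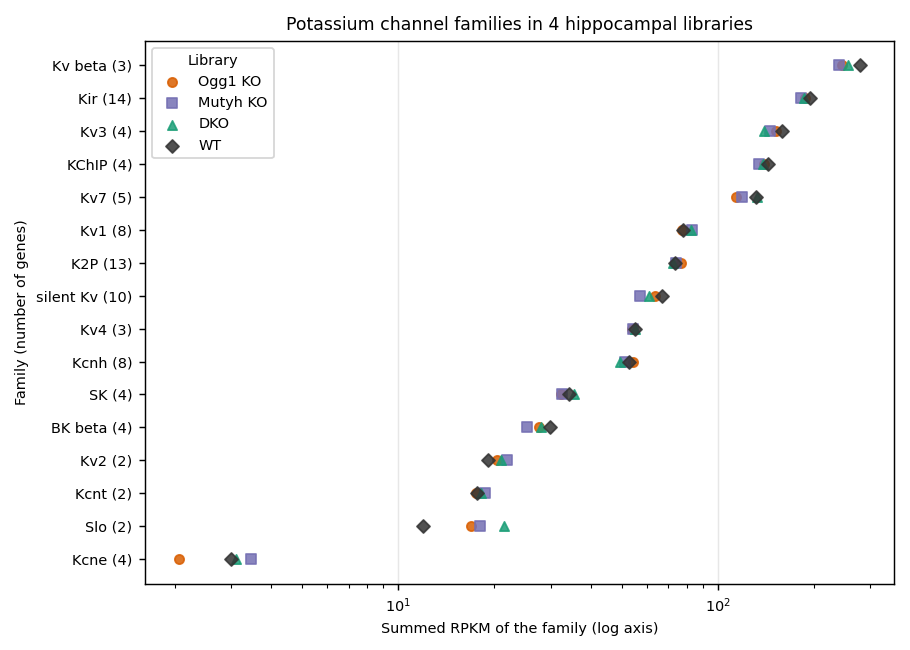
Summed RPKM of each potassium channel family (log axis) in the Ogg1 KO, Mutyh KO, DKO and WT libraries, 1 point per library, with the number of genes in brackets. Family sums range from 2.065 RPKM for Kcne in Ogg1 KO to 279.1 for Kv beta in WT. The points of a family lie close together except for Slo, where WT (11.94) is lowest and DKO (21.48) highest, and Kcne, where Ogg1 KO is lowest.

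Kv beta subunits were the most abundant family by summed RPKM, at 243.9 in Ogg1 KO, 239.8 in Mutyh KO, 256.2 in DKO and 279.1 in WT. These cytoplasmic proteins bind Kv1 channels and help carry them to the axon. Kcnab2 alone gave 81.4% of the sum, with levels of 193 RPKM in Ogg1 KO, 195 in Mutyh KO, 208 in DKO and 232 in WT. Its levels were lower in each knockout library than in WT, at 0.831-fold (95% counting interval 0.811 to 0.851), 0.840-fold (0.820 to 0.861) and 0.895-fold (0.874 to 0.916) in the same order. Folds here and below divide reads by the library total before taking the ratio, and their intervals cover counting error only. Kcnab1 varied little, between 34.5 RPKM in Mutyh KO and 38.1 in DKO.

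The Kv1 pore subunits that these beta subunits join summed to 77.14, 83.22, 82.65 and 77.90 RPKM in Ogg1 KO, Mutyh KO, DKO and WT. Kcna1, an axonal channel that limits repetitive firing, led at 34.8, 37.4, 36.2 and 35.2 RPKM in the same order. Kcna2, its usual partner in axons, had 941, 1033 and 1187 reads in the knockout libraries (Ogg1 KO, Mutyh KO and DKO) and 892 in WT, which put DKO at 1.32-fold WT (1.21 to 1.45). Kcna4, the fast-inactivating member, had 495, 551 and 674 reads against 496 in WT, and DKO stood at 1.35-fold (1.20 to 1.52). Both were highest in DKO. Kcna6 went the other way, at 15.2 RPKM in DKO and 18 in WT. Kcna3 lay between 3.55 and 4.21 RPKM, and Kcna5, Kcna7 and Kcna10 were below 1 RPKM.

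Kv3 channels, which open at strong depolarisation and let interneurons and other cells fire fast, summed to 151.8 RPKM in Ogg1 KO, 145.4 in Mutyh KO, 139.4 in DKO and 159.0 in WT. Kcnc1 lay between 32.7 and 36.4 RPKM and Kcnc2 between 17.2 and 20.4. Kcnc4 had 27.2 RPKM in Ogg1 KO, 22.7 in Mutyh KO, 21.8 in DKO and 26.7 in WT, so that the libraries without Mutyh stood below both others. Kcnc1, Kcnc2 and Kcnc4 were below WT in Mutyh KO and in DKO, by at most 0.28 on the log2(RPKM + 1) scale. Summed interneuron markers were 510 RPKM in Ogg1 KO, 486 in Mutyh KO, 437 in DKO and 532 in WT, the same order as the Kv3 sums, with 3, 1 and 2 of the 6 markers above WT in Ogg1 KO, Mutyh KO and DKO. The part of the markers in the Kv3 values was not tested.

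The Kv4 family carries the A-type current of dendrites, and its members varied little. Kcnd2 had 29.4 RPKM in Ogg1 KO, 29.3 in Mutyh KO, 30.8 in DKO and 30.5 in WT, and Kcnd3 had 21.5, 21.8, 20.9 and 21.1 in the same order. X-linked Kcnd1 stayed between 3.12 and 3.43 RPKM, Mutyh KO with its Xist reads included. The calcium-binding KChIP subunits that regulate these channels were led in RPKM by Kcnip2 (72.7, 69.0, 74.7 and 80.3) and Kcnip3 (35.5, 32.9, 33.9 and 33.5). Kcnip2 is listed at only 813 bases. By reads Kcnip3 led, with 1768, 1650, 1807 and 1776 against 1006, 962, 1105 and 1183 for Kcnip2. Kcnip4 was above WT in each knockout library, by 1.11-fold to 1.18-fold, and Kcnip1 lay between 7.72 and 9.03 RPKM.

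Of the Kv2 subunits, which form the slow delayed rectifier of the soma, Kcnb2 had 1.90 RPKM in Ogg1 KO, 2.11 in Mutyh KO, 1.77 in DKO and 1.57 in WT. The silent Kv subunits form no channel alone and modify Kv2. Their sum was 63.65, 57.19, 60.85 and 66.76 RPKM in the same order. Kcng1 had 585 reads in Ogg1 KO, 487 in Mutyh KO, 491 in DKO and 663 in WT, and had the lowest log2 ratio of the set in DKO over WT (-0.41, or 0.737-fold, 0.655 to 0.830). Kcnf1 was at 0.782-fold WT in Mutyh KO (0.719 to 0.851) and Kcng2 at 0.759-fold in Ogg1 KO (0.667 to 0.862). Kcnv1 lay between 8.15 RPKM in Mutyh KO and 10.9 in Ogg1 KO.

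Kcng3, another silent subunit, had the widest span of the genes with at least 10 reads in every library. It had 36 reads in Ogg1 KO, 46 in Mutyh KO, 78 in DKO and 12 in WT, or 0.630, 0.799, 1.28 and 0.197 RPKM. The folds to WT were 3.19 (1.62 to 6.74), 4.05 (2.11 to 8.40) and 6.47 (3.5 to 13.1). Its mean of 0.726 RPKM fell short of the limit for comparison, so it enters the counts past a fold below only where no filter was used. It was singled out after its values were seen.

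The Kv7 genes encode the M current, which acetylcholine closes and which restrains repetitive firing. Kcnq3 had 515 reads in Ogg1 KO, 510 in Mutyh KO, 681 in DKO and 337 in WT, or 10.5, 10.3, 13 and 6.46 RPKM. WT was the lowest and DKO the highest, and the intervals of the 2 single knockouts overlapped. Its folds to WT were 1.63 (1.41 to 1.87) in Ogg1 KO, 1.60 (1.39 to 1.84) for Mutyh KO, and for DKO 2.01 (1.76 to 2.30). Kcnq5 stayed between 19.2 and 20.9 RPKM, and Kcnq1, a channel of heart and epithelia, had 8 to 13 reads.

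Kcnma1 encodes the pore of the BK channel, which opens on calcium and depolarisation together and ends the spike. It had 1370 reads in Ogg1 KO, 1477 in Mutyh KO, 1885 in DKO and 1003 in WT, or 15.9, 17.1, 20.5 and 11 RPKM. WT was lowest, the single knockouts were close to each other, and DKO was highest, with folds to WT of 1.45 (1.34 to 1.58), 1.56 (1.44 to 1.69) and 1.87 (1.73 to 2.02). Reads covered 97.2% of its gene model in Ogg1 KO, 97.0% in Mutyh KO, 97.0% in DKO and 96.8% in WT. Kcnmb4, the neuronal beta subunit of this channel, did not share the order, at 25.8, 23.3 and 26.2 RPKM in the knockout libraries and 28.2 in WT. The ratio of Kcnma1 to Kcnmb4 in RPKM was 0.618 in Ogg1 KO, 0.731 in Mutyh KO, 0.783 in DKO and 0.389 in WT. BK channels are also a channel of vascular smooth muscle, whose markers together with those of pericytes summed to 122 RPKM in Ogg1 KO, 115 in Mutyh KO, 137 in DKO and 98.1 in WT (5, 6 and 6 of 6 above WT), and their part in the Kcnma1 values was not tested. Kcnmb1, the smooth muscle beta subunit, had 41, 61 and 52 reads in Ogg1 KO, Mutyh KO and DKO, and 50 in WT. Kcnu1, the sperm relative of Kcnma1, stayed between 0.921 and 0.993 RPKM.

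In the Kcnh family, ELK member Kcnh3 was the most abundant, at 28.9 RPKM in Ogg1 KO, 26.7 in Mutyh KO, 26.8 in DKO and 30.7 in WT. Kcnh7, an ERG-type channel gene expressed in neurons, had 118, 146 and 203 reads in Ogg1 KO, Mutyh KO and DKO, against 100 in WT. These are 1.26-fold (0.954 to 1.66), 1.54-fold (1.19 to 2.01) and 2.02-fold (1.58 to 2.59) the WT value. The Ogg1 KO interval includes 1, and DKO is again the highest. Exons of Kcnh7 overlap those of Gca on the other strand in the GENCODE annotation, and Gca lay between 6.04 and 6.97 RPKM, with WT lowest and Ogg1 KO highest. The covered share of Kcnh7 followed its reads, at 72.3%, 75.3% and 87.2% in the knockout libraries and 62.5% in WT, and genes of like length and reads had medians of 67.1%, 72.5%, 82.3% and 61.6%.

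Kcnh4, a second ELK gene, stood apart in Ogg1 KO, with 136 reads against 85 in Mutyh KO, 59 in DKO and 81 in WT. Its fold to WT was 1.79 (1.35 to 2.38) in Ogg1 KO and 0.725 (0.509 to 1.03) in DKO. Between DKO and Ogg1 KO, which both lack Ogg1, it was at 0.406-fold (0.294 to 0.555). Kcnh2, the ERG channel also known from the heart, had 9.24 RPKM in Ogg1 KO, 9.34 in Mutyh KO, 7.84 in DKO and 8.13 in WT, and Kcnh1 lay between 9.35 and 10.9 RPKM.

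The RefSeq promoter windows (GRCm38.p6, 250 bases before to 50 after the start, 300 in all) of 4 of these genes are shown as reference sequence for genes whose reads differed widely between libraries. Kcnq3 is not shown. They lie on the minus strand, at chr14:24004156-24004455 (Kcnma1), chr2:63184238-63184537 (Kcnh7), chr17:83631846-83632145 (Kcng3) and chr11:100759729-100760028 (Kcnh4). Each is written 5′ to 3′, with the GC box (GGGCGG on either strand, overlapping matches included) in capitals.
Kcnma1: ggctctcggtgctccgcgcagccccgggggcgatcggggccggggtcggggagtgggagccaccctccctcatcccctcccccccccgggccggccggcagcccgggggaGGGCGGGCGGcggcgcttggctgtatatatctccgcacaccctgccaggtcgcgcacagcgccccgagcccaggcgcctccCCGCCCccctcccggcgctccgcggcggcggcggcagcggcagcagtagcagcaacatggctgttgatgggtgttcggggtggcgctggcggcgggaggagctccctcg
Kcnh7: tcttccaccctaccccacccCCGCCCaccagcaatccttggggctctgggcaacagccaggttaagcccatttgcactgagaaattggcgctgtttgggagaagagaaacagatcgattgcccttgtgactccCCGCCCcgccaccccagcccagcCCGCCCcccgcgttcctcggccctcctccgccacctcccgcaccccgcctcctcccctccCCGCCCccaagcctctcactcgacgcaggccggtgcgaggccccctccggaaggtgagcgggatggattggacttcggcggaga
Kcng3: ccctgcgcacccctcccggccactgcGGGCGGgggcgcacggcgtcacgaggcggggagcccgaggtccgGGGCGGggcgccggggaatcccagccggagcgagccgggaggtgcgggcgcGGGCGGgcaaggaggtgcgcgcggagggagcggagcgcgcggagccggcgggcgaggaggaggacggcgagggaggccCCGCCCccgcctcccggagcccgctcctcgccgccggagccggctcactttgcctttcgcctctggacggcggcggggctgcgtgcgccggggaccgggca
Kcnh4: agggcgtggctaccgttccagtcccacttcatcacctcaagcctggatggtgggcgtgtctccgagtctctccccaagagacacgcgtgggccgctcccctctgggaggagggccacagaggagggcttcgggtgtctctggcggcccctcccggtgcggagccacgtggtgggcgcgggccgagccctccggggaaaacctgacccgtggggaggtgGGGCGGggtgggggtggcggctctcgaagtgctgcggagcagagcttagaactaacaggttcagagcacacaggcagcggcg
Kcnma1 holds 3 such matches, Kcnh7 4, Kcng3 4 and Kcnh4 1, and their GC contents are 78.0%, 67.7%, 82.0% and 68.7%. Of the 91 promoters listed for 67 of the 92 genes, 48.4% hold a GC box, against 35.7% of all 32851 promoters in the table, and 4.40% against 13.6% hold TATAAA on either strand. The median GC content is 58.3% against 52.7%. A match describes the letters and is not a binding site.

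**Figure D2:**
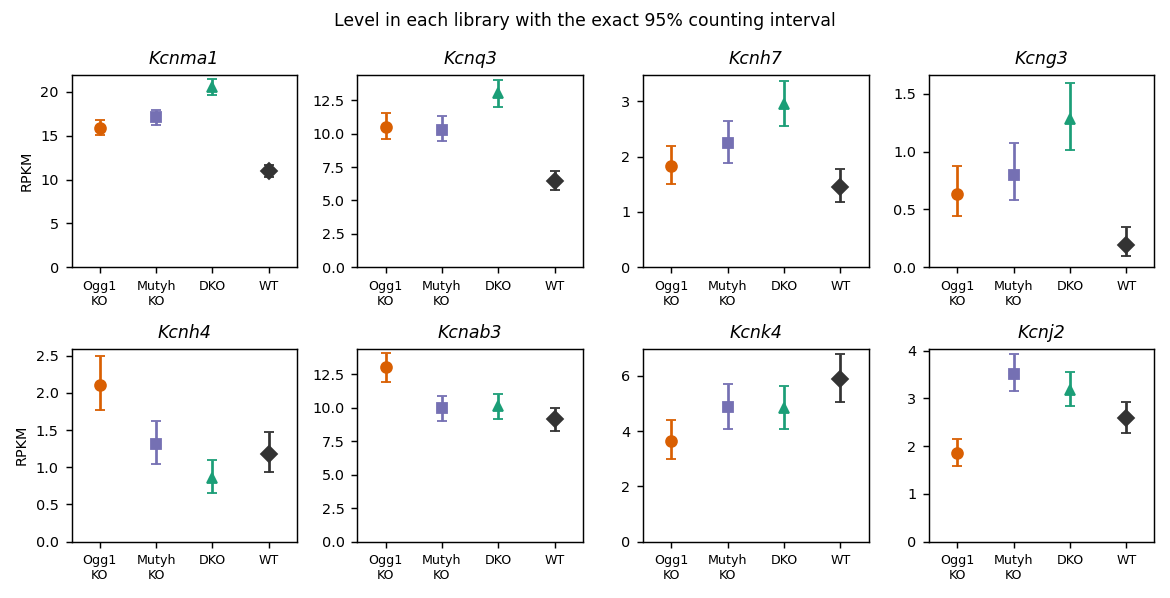
RPKM of 8 potassium channel genes in the Ogg1 KO, Mutyh KO, DKO and WT libraries (1 library each, axes from 0), with bars for the exact 95% Poisson interval of the read count. Kcnma1, Kcnq3, Kcnh7 and Kcng3 are lowest in WT and highest in DKO, and Kcnh4, Kcnab3, Kcnk4 and Kcnj2 have the Ogg1 KO library at one end.

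Among calcium-activated channels of small conductance, Kcnn2, which carries much of the afterhyperpolarisation, led with 23.9, 24.7, 27.9 and 26.4 RPKM in Ogg1 KO, Mutyh KO, DKO and WT. Kcnn1 lay between 3.82 and 4.37 RPKM and Kcnn3 between 3.16 and 3.81. Kcnn4, the intermediate-conductance channel of blood cells, had 5 to 10 reads. The sodium-activated Kcnt1 lay between 11.6 and 13 RPKM, and Kcnt2 was at 4.85 in Ogg1 KO, 5.78 in Mutyh KO, 6.25 in DKO and 6.05 in WT.

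Kir genes summed to 187.8, 182.4, 185.4 and 193.8 RPKM in Ogg1 KO, Mutyh KO, DKO and WT. Kcnj10, the astrocyte channel that buffers potassium, had 52.1, 51.9, 48.8 and 52.0 RPKM, and its partner Kcnj16 had 8.07, 8.0, 8.36 and 8.29. Astrocyte markers summed to 1106, 1172, 1201 and 1137 RPKM in the same order. Among the G-protein-gated subunits, Kcnj3 (37.9 to 41.8 RPKM) and Kcnj9 (21.8 to 22.6 RPKM) were steady, while Kcnj6 had 1080 reads in Ogg1 KO, 1383 in Mutyh KO, 1614 in DKO and 1405 in WT. DKO stood at 1.4-fold Ogg1 KO for Kcnj6 (1.29 to 1.51). The pores of ATP-sensitive channels, Kcnj11 and Kcnj8, lay between 11.6 and 14.2 RPKM and between 1.10 and 1.53 RPKM.

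Kcnj2, a strong inward rectifier of neurons, heart and vessels, had 172 reads in Ogg1 KO, 330 in Mutyh KO, 316 in DKO and 256 in WT. The Ogg1 KO library was lowest, at 0.715-fold WT (0.586 to 0.871), and Mutyh KO and DKO were at 1.36-fold (1.15 to 1.61) and 1.23-fold (1.04 to 1.45). Heart muscle markers were also lowest in Ogg1 KO (2.54 RPKM, 0 of 5 above WT), and their part in the Kcnj2 values was not tested. The related Kcnj4 had 27.3, 20.7, 24.2 and 26.3 RPKM in Ogg1 KO, Mutyh KO, DKO and WT, and Kcnj12 had 2.27, 1.97, 1.65 and 2.35. Kcnj4 was thus lowest in Mutyh KO, at 0.787-fold WT (0.716 to 0.865), and Kcnj12 lowest in DKO, at 0.701-fold (0.514 to 0.954).

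The K2P leak channels summed to 76.72, 74.04, 72.59 and 73.51 RPKM in Ogg1 KO, Mutyh KO, DKO and WT, led by Kcnk1 at 33.3, 33.2, 29.2 and 31.0. The mechanically gated Kcnk4 had 109 reads in Ogg1 KO, 146 in Mutyh KO, 154 in DKO and 187 in WT, and was furthest below WT in Ogg1 KO among the 68 genes compared (0.620-fold, 0.485 to 0.790). Kcnk2, of the same mechanically gated kind, was highest in Ogg1 KO, at 15.7 RPKM against 12.2 in Mutyh KO, 13.3 in DKO and 13.5 in WT. Acid-sensitive Kcnk9 had 163, 177 and 214 reads in Ogg1 KO, Mutyh KO and DKO against 154 in WT, and only its DKO interval lay above 1 (1.38-fold, 1.12 to 1.71). Kcnk3, also acid-sensitive, lay between 4.97 and 5.74 RPKM. Kcnk13, a channel of microglia, lay between 2.42 and 2.76 RPKM, and microglia markers summed to 98.3, 102, 109 and 106 RPKM.

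Kcnab3, the third Kv beta gene, was highest in Ogg1 KO, with 561 reads against 433 in Mutyh KO, 465 in DKO and 419 in WT, 1.42-fold WT, with an interval that lies above 1. Kcne1l, the X-linked member of the single-pass Kcne family, had 48, 73, 63 and 66 reads in Ogg1 KO, Mutyh KO, DKO and WT, and every interval of its folds to WT includes 1. Both genes that encode no subunit were lowest in WT. Kcnq1ot1, an imprinted RNA transcribed from the paternal copy, had 10110 reads in Ogg1 KO, 11234 in Mutyh KO, 11276 in DKO and 8442 in WT, or 7.12, 7.85, 7.42 and 5.58 RPKM. Its folds to WT were 1.27 (1.24 to 1.31), 1.41 (1.37 to 1.45) and 1.33 (1.29 to 1.37). Kcnrg had 26, 37 and 47 reads in the knockout libraries and 25 in WT, and passed the limit of 1 RPKM narrowly, at a mean of 1.04. Its DKO value, the highest at 1.41 RPKM, carried the mean past that limit.

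**Figure D3:**
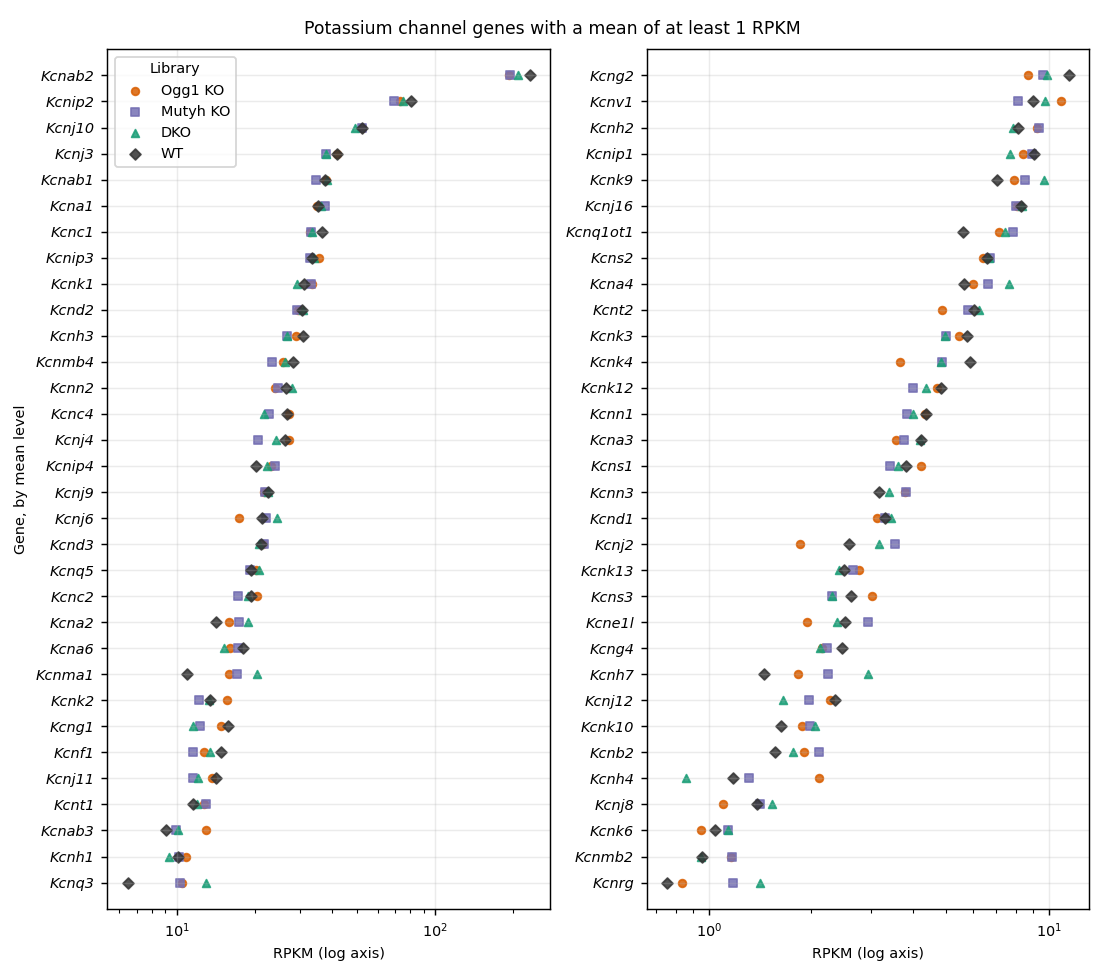
RPKM (log axis) of potassium channel genes compared, ordered by mean level in 2 columns with different axis ranges, with 1 point per library (Ogg1 KO, Mutyh KO, DKO and WT). Most rows are narrow, from Kcnab2 near 200 RPKM to Kcnrg near 1, and wide rows such as Kcnma1, Kcnq3, Kcnh7 and Kcnh4 stand out.

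In order of mean level, Kcnab2 (207 RPKM) stood above every other gene of the set, with no overlap of ranges over the 4 libraries. Kcnip2 (74.2 RPKM) did not overlap Kcnj10 (51.2 RPKM), nor did Kcnj10 overlap Kcnj3 (39.8 RPKM). From Kcnj3 to Kcnab1 (37.0), Kcna1 (35.9), Kcnip3 (33.9) and Kcnc1 (33.9) each gene overlapped the next.

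Kcnu1 (mean 0.967 RPKM) and Kcnh5 (0.757) lay just outside the limit of 1 RPKM, and Kcnrg (1.04) and Kcnmb2 (1.06) just inside. Of the 24 genes below it, 8 had at most 3 reads in every library. These were Kcna7 and Kcna10, Kcne1, Kcnj1, a kidney channel, Kcnk7, Kcnk15 and Kcnk18, and Kcnmb3. Kcnv2, a retinal subunit, had 1 to 5 reads. Another 6 had at least 20 reads in every library, among them Kcna5 (26 to 32 reads), Kcnh5 (47 to 67) and Kcnj14 (21 to 40). Kcnj5 had 21, 13 and 5 reads in Ogg1 KO, Mutyh KO and DKO against 17 in WT, and Kcne4 had 3, 19 and 18 against 6. Kcne3 had 1, 2 and 7 reads in Ogg1 KO, Mutyh KO and DKO against 8 in WT.

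Across the set, differences between libraries were small. In Ogg1 KO against WT, 1 of the 68 genes (Kcnq3) was at least 1.5-fold higher on the log2(RPKM + 1) scale and 0 were lower, or 1.47% in either direction. Of all 13186 genes compared, 1.57% were higher and 0.660% lower, 2.23% together. The median log2 ratio was -0.005 over the 68 and 0.019 over all genes. Past a smaller limit, a log2 ratio of 0.322, 4 were higher (Kcnq3, Kcnh4, Kcnma1 and Kcnab3) and 4 lower (among them Kcnj2, Kcng2 and Kcnk4), or 11.8%. Among all genes 6.87% were higher and 3.57% lower at that limit, 10.4% together, so the share of the set was near that of all genes.

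In Mutyh KO against WT, Kcnq3 and Kcnma1 were at least 1.5-fold higher and 0 were lower, or 2.94%. Among all genes 2.31% were higher and 0.174% lower, 2.48% together. The median was -0.020 over the 68 and 0.012 over all genes. Past the smaller limit, 5 were higher (also Kcnq1ot1, Kcnh7 and Kcnj2) and 3 lower (Kcnf1, Kcnj4 and Kcng1), or 11.8%. Among all genes 8.24% were higher and 1.92% lower, 10.2% together. Both Kcnq3 and Kcnma1 lay close to the 1.5-fold limit, at log2 ratios of 0.60 and 0.59. Scaled by the median of ratios they stood at 0.57 and 0.56, and 0 genes passed.

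In DKO against WT, Kcnq3, Kcnma1 and Kcnh7 were at least 1.5-fold higher, at log2 ratios of 0.91, 0.85 and 0.68, and 0 were lower, or 4.41%. Among all genes 1.62% were higher and 0.394% lower, 2.01% together, and the medians were -0.010 over the 68 and -0.003 over all genes. Past the smaller limit, 8 were higher (also Kcnrg, Kcnk9, Kcna2, Kcna4 and Kcnq1ot1) and 2 lower (Kcnj12 and Kcng1), or 14.7%. Kcnrg entered the 68 only through its high DKO value, so its count here and against Ogg1 KO partly follows from the filter. Among all genes 5.87% were higher and 2.55% lower, 8.42% together. The 3 comparisons share 1 WT library.

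**Figure D4:**
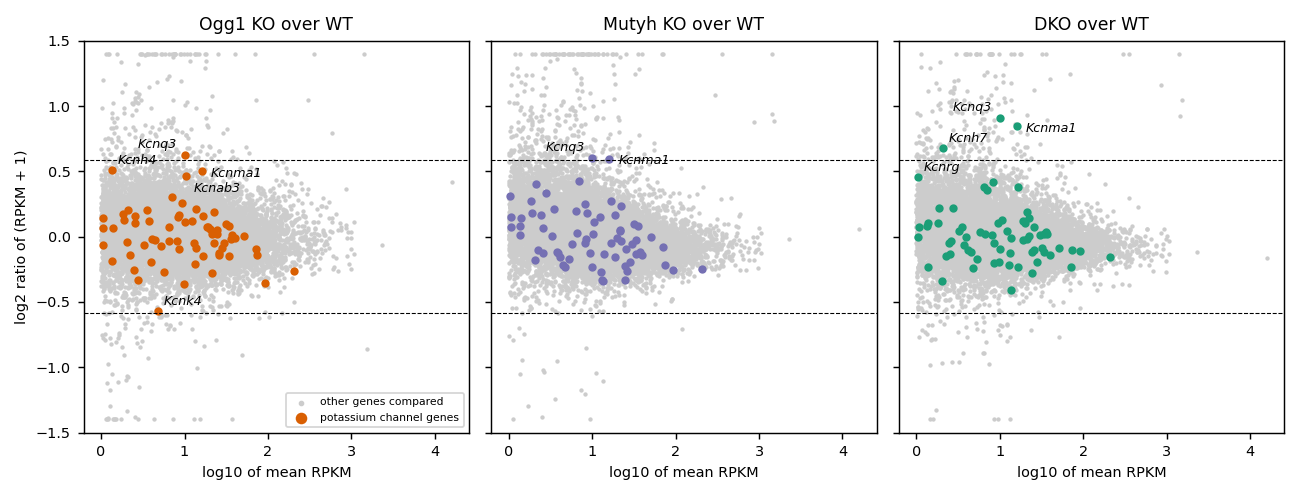
Log2 ratio of (RPKM + 1) against log10 of the mean RPKM for Ogg1 KO, Mutyh KO and DKO over WT, with the 68 potassium channel genes in colour, all other genes compared in grey (drawn in a row near the panel's upper or lower edge where they lie beyond it), and the 1.5-fold limits dashed. Kcnq3 is above the upper limit in each panel, Kcnma1 in Mutyh KO and DKO, and Kcnh7 in DKO alone, while no potassium channel gene lies below the lower limit.

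DKO was also set against each single knockout. Against Ogg1 KO, Kcnh4 was at least 1.5-fold lower (log2 ratio -0.74) and 0 were higher, or 1.47%, where 0.827% of all genes were higher and 0.766% lower, 1.59% together. Past the smaller limit 6 were higher (Kcnj2, Kcnh7, Kcnj6, Kcnrg, Kcnma1 and Kcnk4) and 3 lower (Kcng1, Kcnab3 and Kcnh4), or 13.2%, where 3.66% of all genes were higher and 4.88% lower, 8.53% together. Against Mutyh KO, 0 of the 68 genes were 1.5-fold different, where 0.197% of all genes were higher and 1.15% lower, 1.35% together. None of the 68 passed the smaller limit either, where 1.22% of all genes were higher and 4.14% lower, 5.36% together. The extremes there were Kcnq3 at 0.30 and Kcnh4, just short of the limit, at -0.32.

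Libraries with and without each gene can be set side by side on both backgrounds, in comparisons that share no library. With 1 library per genotype, loss of a gene cannot be told apart from other differences between libraries. Such differences include the Xist reads of Mutyh KO and the choroid plexus markers. For Ogg1 loss (Ogg1 KO over WT, then DKO over Mutyh KO), the log2 ratios were 0.63 and 0.30 for Kcnq3, 0.50 and 0.25 for Kcnma1, and 0.20 and 0.28 for Kcnh7. For Mutyh loss (Mutyh KO over WT, then DKO over Ogg1 KO), they were 0.60 and 0.28 for Kcnq3, 0.59 and 0.34 for Kcnma1, and 0.40 and 0.48 for Kcnh7. Kcnq3, Kcnma1 and Kcnh7 were picked as the genes at least 1.5-fold higher in DKO over WT. That choice favours low WT and high DKO values, and so positive ratios on both backgrounds. Kcnh4 went opposite ways for Ogg1 loss, at 0.51 and -0.32. For Mutyh loss Kcnh4 stood at 0.08, where the fold interval includes 1 (1.11-fold, 0.808 to 1.52), and at -0.74. Its high Ogg1 KO value enters both pairs. Across the 68 genes, Pearson's r between the backgrounds was 0.03 for Ogg1 loss and 0.37 for Mutyh loss (Spearman's rho -0.03 and 0.32). Over all genes compared r was -0.19 and -0.01. These are descriptions across genes, which share the same 4 libraries and are not independent replicates. Without Kcnq3, Kcnma1 and Kcnh7, left out after their values were seen, r was -0.20 and 0.24 over 65 genes.

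WT was the lowest library for 16 of the 68 genes (23.5%) and the highest for 21 (30.9%), beside 30.7% and 25.9% of all genes compared. WT lowest together with DKO highest held for 8 genes (11.8%), beside 8.5% of all. Kcnrg is among them. It entered the 68 only through its high DKO value, so that count partly follows from the filter. The opposite order, DKO lowest and WT highest, also held for 8 (11.8%), beside 8.20%. For 46 of the 68 (67.6%) the highest and lowest libraries differed by less than the smaller limit in log2(RPKM + 1), beside 76.2% of all genes.

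A list of 45 genes whose products anchor, traffic or work beside potassium channels was examined for comparison, and 41 of them were compared. On the log2(RPKM + 1) scale, 0 of the 41 were 1.5-fold different in any of the 5 comparisons. Among all genes the share was 1.35% (DKO against Mutyh KO) to 2.48% (Mutyh KO against WT). At such shares, 0 of 41 says little about this list. The median log2 ratio of the 41 to WT was 0.01 for Ogg1 KO, -0.05 for Mutyh KO and -0.04 for DKO. Past the smaller limit, Akap9, the anchor that ties kinase to the Kcnq1 channel, was above WT in each knockout library, at 8.31, 8.28 and 8.65 RPKM in Ogg1 KO, Mutyh KO and DKO against 6.10 in WT. Reads covered 94.8%, 96.2% and 97.3% of Akap9 in the same knockout libraries, but 82.9% in WT. Slc12a2, a chloride importer that the choroid plexus also expresses, had 16.7, 17 and 14 RPKM in Ogg1 KO, Mutyh KO and DKO against 11 in WT, an order that choroid plexus markers shared in having Ogg1 KO and Mutyh KO above DKO and WT lowest. The part of those markers in it was not tested. Slc12a2 came closest to the 1.5-fold limit, at log2 ratios to WT of 0.56 in Ogg1 KO and 0.58 in Mutyh KO. By reads, these were 1.52-fold (1.41 to 1.63) and 1.54-fold (1.44 to 1.66). Sptbn4, the spectrin that holds Kv7 channels at the axon initial segment, was lower in Ogg1 KO (30.3 RPKM against 39.7 in WT, 0.763-fold, 0.734 to 0.793). Dpp6, an auxiliary subunit of Kv4 channels, lay between 97.1 and 109 RPKM.

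The coverage of a gene, the percent of its length under reads, was close to that of the 200 genes nearest in length and reads for most of the set. Of the 68 genes, 24 in Ogg1 KO, 23 in Mutyh KO, 33 in DKO and 28 in WT lay below the median of their like genes. The same share over all genes was not computed, so these counts are not read further. Some stood well below it in all 4 libraries. Kcnj6 was covered over 76.7%, 78.2%, 77.7% and 75.5% of its length in Ogg1 KO, Mutyh KO, DKO and WT, where like genes had 97.3% to 98.1%. Kcnmb4 had 77.3%, 77.8%, 79.4% and 78.8%, where like genes had 96.0% to 96.8%, and Kcnip1 and Kcnn1 were of the same kind. The files do not give which bases were covered. Kcnq1ot1, listed at 83437 bases, was covered over 55.0%, 59.4%, 63.6% and 49.6% in Ogg1 KO, Mutyh KO, DKO and WT.

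**Figure D5:**
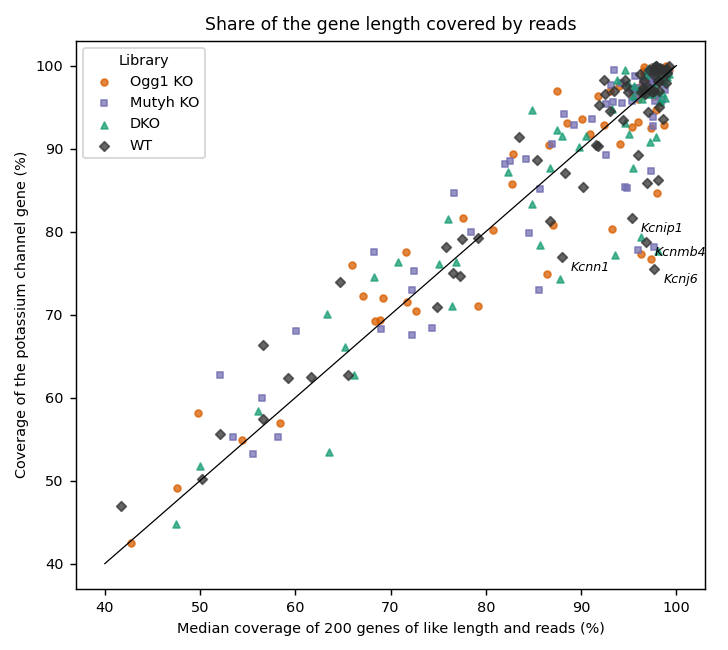
Coverage of each potassium channel gene compared (percent of its length, without Kcnq1ot1) against the median coverage of the 200 genes nearest in length and reads, 1 point per gene and library, with the line of equality. Most points lie near the line in the Ogg1 KO, Mutyh KO, DKO and WT libraries, and Kcnj6, Kcnmb4, Kcnn1 and Kcnip1 lie below it.

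By RefSeq gene order, 16 of the genes sit next to another of the set, in 7 groups, and neighbours differed widely in level. Kcna5, Kcna1 and Kcna6 are adjacent, and their levels in DKO were 0.471, 36.2 and 15.2 RPKM, against 0.583, 35.2 and 18 in WT. In the second trio Kcna3, Kcna2 and Kcna10, Kcna10 had at most 3 reads. Kcnj2 and Kcnj16 are adjacent, and Kcnj2 spanned 1.90-fold between its highest and lowest library while Kcnj16 spanned 1.04-fold. Exons of 26 of the 92 genes overlap those of a gene on the other strand in GENCODE M21, and the sources used here do not state the strand of the reads. Kcnma1 (4930519K11Rik), Kcnab3 (Kcnab3os) and Kcnq1 with Kcnq1ot1 are among them. Reads inside such an overlap cannot be assigned to a strand, while reads elsewhere in these genes are not affected. Exons of 2 more overlap those of a gene on the same strand, Kcnab2 (Gm16334) and Kcnk4 (Catsperz).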

How the data were processed

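The members and lists were chosen with earlier results of these data known. Each of the 4 tables, 1 per library, lists genes by ID and symbol. Per the file headers, the authors counted unique reads (a count for each gene), and they deposited RPKM values, which follow from reads, gene length and the library total. They deposited coverage as a percent of gene length, a meaning read from the column name. Genes not listed were taken as 0. The genome was mm9, per the submitters' processing notes. The sources used here do not name the aligner, counting program or annotation. Rows with no symbol held 0.0179% to 0.0195% of reads.

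Genes with a mean of at least 1 RPKM were compared by log2 ratios of RPKM + 1, which understate differences of low genes, and called at 1.5-fold, with a log2 ratio of 0.322 beside it. Fold intervals are exact and conditional at 95%, and count intervals are exact Poisson. They cover counting error only. Genes were named as the leader of each family, the 6 highest and 6 lowest in each comparison, the 10 most abundant and those past 1.5-fold. Others were named to account for the family, and a few genes are not reported here, in text or by name in figures, though they enter counts and sums. A planned look at protein sequences was not made. All 92 genes matched RefSeq by gene ID, and its build (GRCm38.p6) served names, order and promoters. The fold calculation was tested on simulated data. Python 3.11.15, pandas 2.3.3 and scipy 1.17.1 were used.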

Additional observations from a re-analysis of the deposited data

How the results depend on the processing

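The medians over the set and the correlations between backgrounds moved by less than 0.1 under the alternative pseudocounts, filters and scalings (pseudocounts of 0.5 and 0.1 RPKM, no filter or a mean of at least 5 RPKM, scaling by the median of ratios, totals without ribosomal RNA and choroid plexus genes, and, for the medians, leaving out Kcnq1ot1 and Kcnrg, which was added after seeing the data). The medians lie near 0 and crossed it under some of them, and r for Ogg1 loss ranged from -0.05 to 0.12. Leaving out Kcnma1, Kcnq3 and Kcnh7, also chosen after seeing the data, moved r by more, to -0.20 for Ogg1 loss and 0.24 for Mutyh loss. The counts past the fold are small and moved more. The share of all genes was computed only for the main setting and the log2 ratio of 0.322. The other counts here therefore cannot be set against all genes. For Ogg1 KO against WT, 1 gene became 3 with either smaller pseudocount, 2 by median of ratios, 8 at a log2 ratio of 0.322 and 0 at 2-fold. For Mutyh KO against WT, 2 became 0 by median of ratios, where Kcnq3 stood at 0.57 and Kcnma1 at 0.56, 8 at a log2 ratio of 0.322 and 0 at 2-fold. For DKO against WT, 3 became 4 with either smaller pseudocount or no filter, 10 at a log2 ratio of 0.322 and 0 at 2-fold. With a mean of at least 5 RPKM it became 2, as Kcnh7, at a mean of 2.11 RPKM, fell out. The added gene was Kcnrg with the smaller pseudocounts (0.61 and 0.82) and Kcng3 without the filter (0.93). Kcnrg passed the filter only through its high DKO value, and Kcng3 was singled out after its values were seen. For DKO against Ogg1 KO, 1 became 2 with a pseudocount of 0.5 RPKM, 4 with 0.1 RPKM, 9 at a log2 ratio of 0.322, and 0 both at 2-fold and with a mean of at least 5 RPKM. Kcnrg, at 0.69, is among the 4. Under the smaller pseudocounts Kcnh4 and Kcnk4 passed 1.5-fold in Ogg1 KO against WT, at log2 ratios up to 0.79 and down to -0.67. The median of ratios moved the median of all genes by at most 0.030. By reads in place of RPKM, the leading member stayed the same in 13 of 16 families. It became Kcnip3 among KChIP, Kcnd3 in Kv4 and Kcnf1 among silent Kv subunits.

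No paired analysis was possible because each genotype has 1 library, so no library was left out of a comparison. Genes with few reads have wide counting intervals, and differences between animals were not measured.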
